A study of Mus musculus with 12 samples.

Results

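The 8 genes Lars2, Olfr769, Ccdc187, Ip6k2, Pde10a, Ttll11, Isyna1 and Pagr1a were described, of 25655 genes counted in whole mouse retina 2 days after optic nerve crush (ONC). They were chosen by their measured counts and CPM in these same libraries, as genes whose levels shifted markedly with fluvastatin or MBV alone, so their levels and fold changes are a description, and no p-value is given for them. The study crushed the left optic nerve of C57BL/6J mice (8 to 10 weeks old in the labels), gave a single intravitreal injection, and asked which retinal genes each treatment changed. The 4 treatments were PBS, fluvastatin, MBV, or MBV plus fluvastatin, with 3 samples each. Fluvastatin is a statin, an inhibitor of the rate-limiting enzyme of cholesterol synthesis. MBV are matrix-bound nanovesicles, membrane vesicles prepared from the extracellular matrix of pig urinary bladder. Every mouse thus carried the same nerve injury and the same kind of injection, and PBS was the control. Uninjured retina was not part of the comparison. The study calls the samples of a group biological replicates, the labels do not say how many animals gave each, and the p-values given below for other genes measure the spread between these samples. The 3 samples of MBV plus fluvastatin were not analysed here. The study's own list of genes changed by that treatment (FDR under 0.05 and at least 2-fold) holds Pagr1a, as higher. It holds no other of the 8 genes. That Pagr1a was high with MBV plus fluvastatin was already known when the genes were chosen. The comparisons made were fluvastatin with PBS, MBV with PBS, and MBV with fluvastatin.

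The 8 genes belong to different processes, except that Isyna1 and Ip6k2 both belong to inositol metabolism. Lars2 encodes the mitochondrial leucyl-tRNA synthetase, which loads leucine onto its tRNA for the translation of proteins encoded in mitochondrial DNA. Isyna1 makes inositol phosphate from glucose phosphate, the first step of inositol synthesis, and Ip6k2 adds a further phosphate to fully phosphorylated inositol, making a pyrophosphate messenger. Pde10a is a phosphodiesterase that breaks down cAMP and cGMP, Ttll11 adds glutamate chains to tubulin, Pagr1a is a subunit of the MLL3 and MLL4 histone methyltransferase complexes, Olfr769 is an odorant receptor gene, and Ccdc187 encodes a coiled-coil protein. In the retina cyclic nucleotides carry the light response of photoreceptors, and tubulin glutamylation marks the stable microtubules of cilia and axons.

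The library totals ran from 21349516 to 30992040 counts over the 9 libraries used. Levels are CPM, counts scaled to an equal library total, after TMM scaling, which sets the bulk of genes equal between libraries. The library numbers fall into 2 sets. The PBS libraries were numbered in the first set, together with those of MBV plus fluvastatin. The fluvastatin and MBV libraries were numbered together in the second. Set and treatment therefore cannot be told apart when either treatment is compared with PBS, whereas MBV and fluvastatin lie in 1 set. The libraries also differed in markers of retinal cells. The summed level of 5 rod markers was between 28204 and 40127 CPM in the 6 treated libraries and between 41456 and 44920 CPM with PBS. That of 5 Mueller glia markers was between 1528 and 3135 CPM against 3334 to 3971 CPM, and that of 5 erythrocyte markers between 13.3 and 17.2 CPM against 6.50 to 8.25 CPM. The 8 lens markers summed to between 77.5 and 168 CPM with MBV, against at most 37.5 CPM in the other 6 libraries, and MBV replicate 3 held 120 CPM of 8 leukocyte markers against at most 25.7 CPM elsewhere. With fluvastatin the leukocyte markers were at 6.26 to 10.9 CPM, below the 12.2 to 25.7 CPM with PBS, and 10 markers of pigment epithelium and melanocytes were at 101 to 151 CPM, below 152 to 183 CPM. With MBV 4 markers of corneal epithelium were at 0.639 to 1.28 CPM, below 1.79 to 5.29 CPM with PBS. None of the 12 marker lists had a gene at 0 in all 9 libraries, and in the other 5 lists each treatment overlapped PBS. The part of these differences in the shifts of the 8 genes was not tested, and in whole retina fewer cells of a type and less RNA per cell cannot be told apart.

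Of the 8 genes, 6 separated all treated from all PBS libraries. Lars2, Olfr769, Ccdc187 and Pde10a were higher in each of the 6 libraries given fluvastatin or MBV than in any of the 3 PBS libraries, and Ttll11 and Isyna1 were lower in each. The same separation was seen for 26.2% of all genes with a count (12.2% higher and 14.0% lower), and nothing is read from the members' count since this shift chose them. Ip6k2 with fluvastatin spread to both sides of the PBS libraries (71.0 to 92.0 CPM against 84.4 to 90.6 CPM), and with MBV it was higher than in both groups. Pagr1a was high in a pair of MBV libraries and low in the third.

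**Figure D1:**
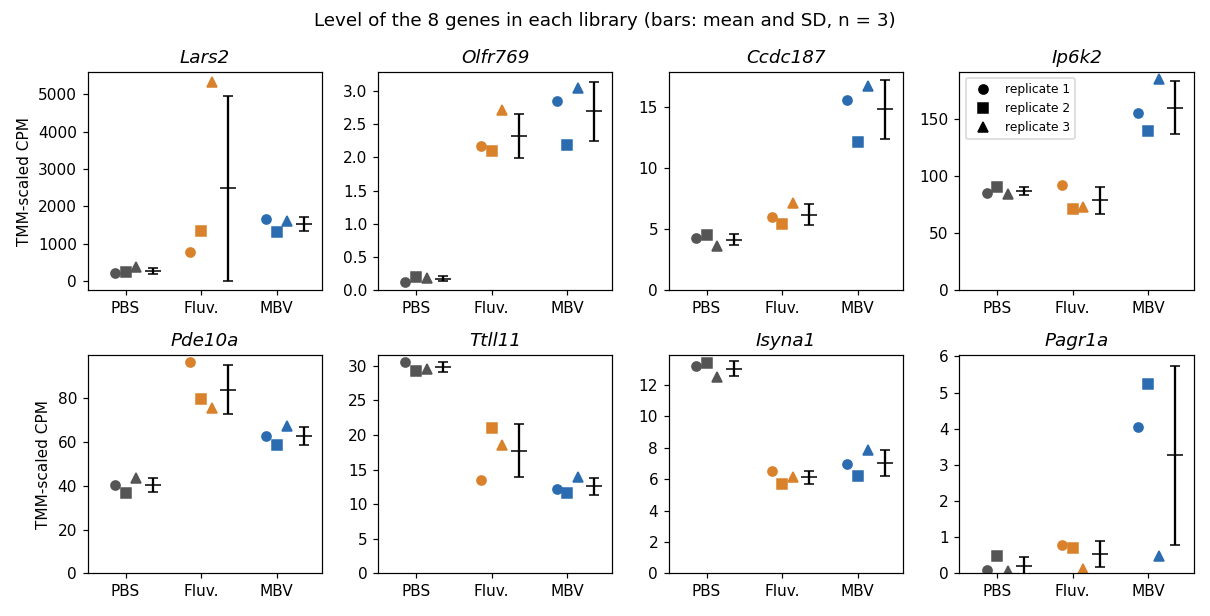
Level of each gene (TMM-scaled CPM, y axis, linear) in the 9 libraries by treatment (x axis), with the marker shape giving the replicate number and the black bar the mean ± SD (n = 3). Lars2 in fluvastatin replicate 3 stands at 5336 CPM and Pagr1a in MBV replicate 3 at 0.471 CPM, both far from the other libraries of their group.

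Lars2 (ENSMUSG00000035202) lies on the plus strand at chr9:123195992-123291731 (GRCm39) and overlaps no other gene of the tables, although GENCODE M39 places a non-coding RNA, Gm68993, on its opposite strand. Its level was 212, 235 and 367 CPM with PBS, 769, 1328 and 5336 CPM with fluvastatin, and 1659, 1306 and 1599 CPM with MBV. The PBS libraries were the lowest, and the fluvastatin libraries spread over a 6.94-fold range that enclosed the MBV libraries. Fluvastatin replicate 3 alone held 125835 Lars2 reads, against 18659 and 35522 in the other fluvastatin libraries. The mean was 271 ± 83.5 CPM (SD, n = 3) with PBS, 2477 ± 2491 CPM with fluvastatin and 1521 ± 189 CPM with MBV. On the log2 scale the change compared to PBS was 3.19 with fluvastatin and 2.48 with MBV. Without fluvastatin replicate 3 the change with fluvastatin fell to 1.95, and the difference of MBV from fluvastatin turned from -0.70 to 0.53.

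The last exon of Lars2 holds a sequence that is also found elsewhere in the genome. This exon (chr9:123290564-123291729) is 1166 bases long, and the coding sequence ends within it at 123290740. In the 3′ untranslated part a stretch of 398 bases (123290857 to 123291254), 34.1% of the exon, had 21 partial matches at other places in GRCm39, between 50 and 244 bases long, with at least 85% identity, and 12 of them had at least 95% identity. The 30 bases with the most exact copies are printed because each copy carries the same letters over this length, which is shorter than a read.
Lars2 3′ untranslated, chr9:123291014-123291043, plus strand: aaagttaccacagggataactggcttgtgg
They occur at 7 other places. The same letters belong, as background knowledge, to the conserved core of the large ribosomal RNA, and no gene for that RNA had a row in the tables. Of 1092 windows of 75 bases, the length of a read, in this exon, 20 had an exact copy elsewhere. Over all exons of Lars2 it was 218 of 8507 windows, with up to 1600 copies, so that most of these windows lay in other exons. The longest match (244 bases, 97.5% identity) lay in an intron of Gphn, which encodes the receptor scaffold gephyrin. The 8 protein-coding genes with counts that held a match held it in an intron, and their mean levels with fluvastatin were between 0.398 times (Zfp185) and 1.23 times (Cntnap5b) those with PBS. With MBV they were between 0.329 times (Zfp185) and 1.58 times (Cd44). How many of the reads counted for Lars2 came from such copies was not tested.

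**Figure D2:**
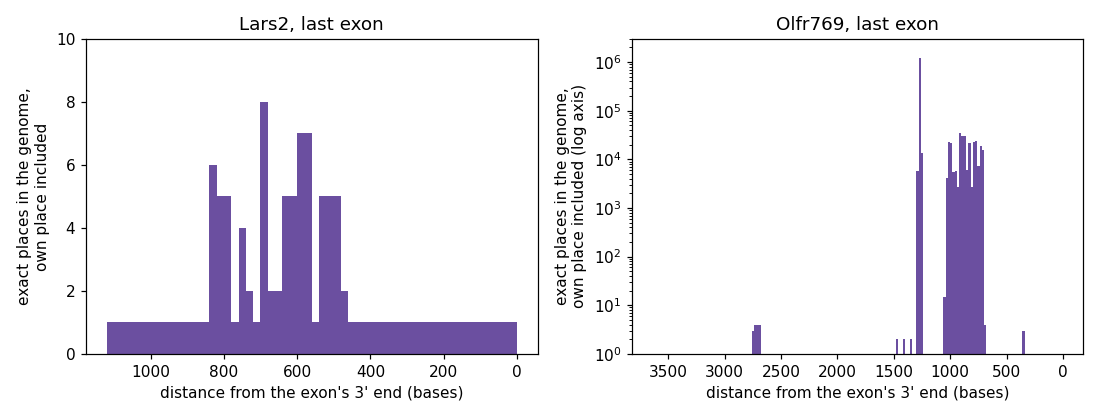
Number of exact places in GRCm39 (own place included, both strands) of the 30-base windows along the last exon of Lars2 (left, linear axis) and of Olfr769 (right, log axis), as the highest value in each bin of 20 bases, against the distance from the 3′ end of the exon in bases. In Lars2 the repeated windows lie in 1 stretch with up to 7 copies elsewhere, and in Olfr769 they reach many more.

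Of 21 further genes for mitochondrial tRNA synthetases and their partners, 1 rose and 3 fell with fluvastatin, where 19.6% of all genes tested were called (9.36% higher and 10.2% lower) at an adjusted p under 0.05 (edgeR's quasi-likelihood test, Benjamini-Hochberg adjustment). With MBV 1 rose and 5 fell, where 26.1% of all genes were called (12.0% higher and 14.1% lower). Iars2, the isoleucyl-tRNA synthetase, fell from 73.3 ± 1.28 to 65.0 ± 1.59 CPM with fluvastatin (adjusted p = 0.0254). Qrsl1, a subunit of the enzyme that makes glutaminyl-tRNA in mitochondria, fell by 0.38 on the log2 scale with fluvastatin (adjusted p = 0.0103) and by 0.63 with MBV (adjusted p = 0.00222). The median change of the 21 genes was -0.09 with fluvastatin and -0.08 with MBV, beside -0.01 and 0.01 over all genes. The call counts of this list rest on single libraries: the 4 calls with fluvastatin dropped to 1 without PBS replicate 1, PBS replicate 2 or fluvastatin replicate 2, and to 2 without fluvastatin replicate 3 or PBS replicate 3, and the 6 calls with MBV dropped to 3 without PBS replicate 1.

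Of the 13 mRNAs encoded in mitochondrial DNA, 4 rose and 2 fell with fluvastatin, and 2 rose and 3 fell with MBV, beside 19.6% and 26.1% of all genes called. The most abundant, mt-Co1, was at 9566 ± 449 CPM with PBS, 9324 ± 668 CPM with fluvastatin (adjusted p = 0.719) and 8196 ± 644 CPM with MBV (adjusted p = 0.0372). mt-Co3, also a subunit of cytochrome oxidase, fell by 0.28 with fluvastatin (adjusted p = 0.00765) and by 0.47 with MBV (adjusted p = 0.00225), and mt-Atp8 rose by 0.70 and 0.39 (adjusted p = 0.00242 and 0.0107). The 5 calls with MBV became 11 without MBV replicate 3, 3 without MBV replicate 1 or PBS replicate 2, and 1 without PBS replicate 1. Of 16 further entries in a list of ribosomal RNA genes and genes known to collect ribosomal RNA reads, 8 had rows, among them Camk1d at 310 ± 4.71 CPM with PBS and 306 ± 6.30 CPM with fluvastatin (adjusted p = 0.774). Of these 8, Gm10800 fell with fluvastatin (log2 fold change -1.08, adjusted p = 0.00972) and Filip1l rose with MBV (0.31, adjusted p = 0.004), beside 19.6% and 26.1% of all genes called, and the median change of the 8 was -0.05 and 0.03. The single call with fluvastatin was lost without PBS replicate 1 and became 2 without fluvastatin replicate 1. The single call with MBV became 2 without PBS replicate 3.

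Isyna1 (ENSMUSG00000019139, chr8:71047023-71049940, plus strand) was at 13.2, 13.4 and 12.5 CPM with PBS, at 6.51, 5.68 and 6.15 CPM with fluvastatin, and at 6.98, 6.21 and 7.87 CPM with MBV. All 6 treated libraries were below the lowest PBS library, and the treatments overlapped each other. The mean fell from 13.0 ± 0.483 CPM (n = 3) to 6.11 ± 0.414 CPM with fluvastatin, 2.13-fold lower, and to 7.02 ± 0.830 CPM with MBV, 1.86-fold lower. Leaving out any 1 library kept the log2 change between -1.14 and -1.04 with fluvastatin and between -0.99 and -0.82 with MBV. Isyna1 overlaps no gene of the tables. Its neighbour Ssbp4, which begins 200 bases beyond it on the opposite strand, was at 78.6 ± 4.84 CPM with PBS, 67.3 ± 3.33 CPM with fluvastatin and 81.5 ± 2.51 CPM with MBV.

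Ip6k2 (ENSMUSG00000032599, chr9:108660995-108683536, plus strand) was at 85.0, 90.6 and 84.4 CPM with PBS and at 92.0, 71.0 and 72.3 CPM with fluvastatin. With MBV it was at 155, 139 and 185 CPM. The PBS and fluvastatin libraries overlapped, and each MBV library stood above both groups. The mean was 86.7 ± 3.43 CPM with PBS, 78.4 ± 11.7 CPM with fluvastatin and 160 ± 23.1 CPM with MBV, so that MBV was 1.84-fold above PBS and 2.03-fold above fluvastatin. Since MBV and fluvastatin libraries share a set of library numbers, the second of these differences lies within the set. On leaving out 1 library it stayed between 0.91 and 1.16 on the log2 scale. GENCODE M39 places a non-coding RNA, Gm67861, and a small nucleolar RNA, Gm23034, on the opposite strand of Ip6k2. The neighbouring genes on the same strand were at 19.1 ± 1.11, 18.6 ± 1.48 and 21.3 ± 0.796 CPM (Nckipsd, with PBS, fluvastatin and MBV) and at 195 ± 13.6, 216 ± 11.1 and 237 ± 4.09 CPM (Celsr3).

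Of 26 further genes of inositol synthesis, uptake and phosphorylation, 2 rose and 4 fell with fluvastatin (19.6% of all genes were called), and 4 rose and 7 fell with MBV (26.1% of all genes). Nudt4, which breaks down the pyrophosphates that Ip6k2 makes, fell from 216 ± 14.1 to 152 ± 5.73 CPM with fluvastatin (adjusted p = 0.00063) and to 163 ± 12.7 CPM with MBV (adjusted p = 0.0024). Itpk1, an inositol phosphate kinase, rose from 44.0 ± 1.62 to 56.2 ± 1.05 CPM with fluvastatin (adjusted p = 0.00177) and to 59.4 ± 2.95 CPM with MBV (adjusted p = 0.0011). Ip6k3, the muscle form of the kinase, fell from 4.60 ± 0.581 to 2.04 ± 0.413 CPM with MBV (adjusted p = 0.00267). The third form, Ip6k1, was at 221 ± 2.43 CPM with PBS, 221 ± 7.28 CPM with fluvastatin and 224 ± 6.23 CPM with MBV (adjusted p = 0.974 and 0.911). The median of the 26 genes was -0.11 and -0.10. The 6 calls with fluvastatin dropped to 3 without fluvastatin replicate 2, and the 11 with MBV to 6 without PBS replicate 1.

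Pde10a (ENSMUSG00000023868, chr17:8744204-9205480, plus strand, 461 kb) was at 40.4, 36.9 and 43.4 CPM with PBS, 96.6, 79.4 and 75.4 CPM with fluvastatin, and 62.5, 58.5 and 67.1 CPM with MBV. The 3 groups did not overlap, with PBS lowest, MBV in the middle and fluvastatin highest. The means were 40.2 ± 3.28, 83.8 ± 11.3 and 62.7 ± 4.31 CPM (n = 3 each). Fluvastatin was 2.08-fold and MBV 1.56-fold above PBS, and MBV was 1.34-fold below fluvastatin. Leaving out any 1 library kept the last difference between -0.50 and -0.30 on the log2 scale. In GENCODE M39, 6 non-coding RNAs and pseudogenes overlap Pde10a, and of these Gm66609 lies on the same strand.

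Of 22 other cyclic nucleotide phosphodiesterases, 4 rose and 2 fell with fluvastatin, where 9.36% of all genes rose and 10.2% fell. With MBV 5 rose and 5 fell, where 12.0% of all genes rose and 14.1% fell, and the median change was 0.04 and -0.03. Pde4a and Pde4d, which break down cAMP, rose by 0.36 and 0.20 with fluvastatin (adjusted p = 0.00609 and 0.0275). Pde1a, a calcium-dependent form, fell from 15.5 ± 1.64 to 8.96 ± 2.51 CPM with fluvastatin (adjusted p = 0.00886) and to 8.10 ± 0.878 CPM with MBV (adjusted p = 0.000722). Pde6b, a catalytic subunit of the rod enzyme of the light response, fell from 1590 ± 113 to 1235 ± 203 CPM with MBV (adjusted p = 0.0316), and it is 1 of the 4 rod markers, of 5, that fell with MBV. The 6 calls with fluvastatin dropped to 3 without PBS replicate 1 or fluvastatin replicate 2, and the 10 with MBV to 6 without MBV replicate 1.

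Ttll11 (ENSMUSG00000026885, chr2:35641253-35869925, minus strand) was at 30.6, 29.3 and 29.5 CPM with PBS. It was at 13.5, 21.0 and 18.6 CPM with fluvastatin and at 12.2, 11.6 and 13.9 CPM with MBV. All treated libraries were below PBS, and fluvastatin replicate 1 lay among the MBV libraries. The PBS libraries were close together, with an SD of 0.691 around 29.8 CPM. The mean was 1.68-fold lower with fluvastatin (17.7 ± 3.84 CPM) and 2.37-fold lower with MBV (12.6 ± 1.16 CPM). Gm43760 and Gm10829 lie within Ttll11, and neither had a count in any of the 9 libraries. They are among 5 genes that overlap Ttll11 in GENCODE M39, and the others, non-coding RNAs on its opposite strand, were not counted.

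Of 17 other genes for the addition or removal of tubulin glutamate, 3 rose and 1 fell with fluvastatin (19.6% of all genes were called), and 3 rose and 2 fell with MBV (26.1% of all genes), with a median of 0.04 and -0.02. Ttll5, a glutamylase of photoreceptor cilia, rose by 0.22 with fluvastatin (adjusted p = 0.0134) and by 0.23 with MBV (adjusted p = 0.0225). Agbl5, which removes glutamate at branch points, rose by 0.32 and 0.37 (adjusted p = 0.00685 and 0.00413). Agtpbp1, the most abundant deglutamylase here, was at 523 ± 87.9 CPM with PBS, 637 ± 76.6 CPM with fluvastatin (adjusted p = 0.101) and 757 ± 198 CPM with MBV (adjusted p = 0.0585). The 4 calls with fluvastatin dropped to 1 without PBS replicate 1, and the 5 with MBV to 1 without MBV replicate 1, to 2 without PBS replicate 1 and to 3 without PBS replicate 3.

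**Figure D3:**
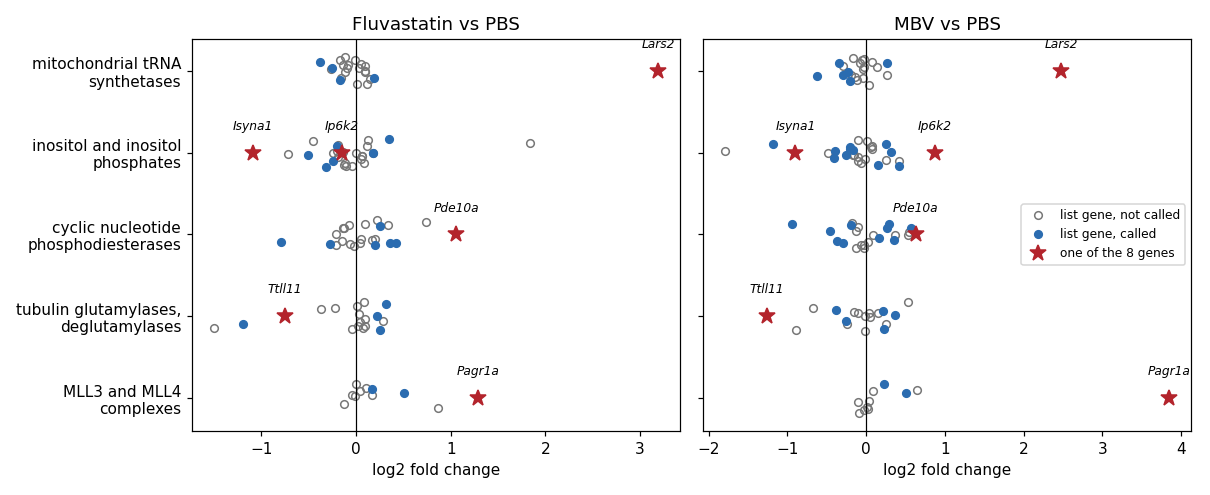
log2 fold change (x axis) compared to PBS with fluvastatin (left) and MBV (right) of each gene of 5 lists (rows, with vertical scatter for visibility), where filled circles passed an adjusted p under 0.05, open circles did not, and red stars are the genes described here. Lars2 and Pagr1a lie to the right of every other gene of their lists in the MBV panel, while the 17 to 26 other genes of the lists of Ttll11, Pde10a and Isyna1 scatter on both sides of 0. The starred genes were chosen for their shifts in these libraries, so nothing is read from their place. Pagr1a overlapped PBS in both panels.

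Ccdc187 (ENSMUSG00000048038, chr2:26133481-26184569, minus strand) was at 4.29, 4.47 and 3.61 CPM with PBS, at 6.01, 5.38 and 7.08 CPM with fluvastatin, and at 15.5, 12.1 and 16.7 CPM with MBV. The 3 groups did not overlap, in the order PBS, fluvastatin, MBV. The mean with fluvastatin, 6.16 ± 0.858 CPM, was 1.49-fold above that with PBS, 4.12 ± 0.453 CPM. With MBV it was 14.8 ± 2.39 CPM, which was 3.58-fold above PBS and 2.40-fold above fluvastatin. The nearest gene, Qsox2, was at 37.1 ± 1.43, 35.4 ± 1.92 and 34.5 ± 1.55 CPM with PBS, fluvastatin and MBV.

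Olfr769 (ENSMUSG00000042801, chr10:128944821-128953730, minus strand, named Or6c2b in GENCODE M39) had few reads. The PBS libraries held 4, 6 and 5 reads, the fluvastatin libraries 53, 56 and 64, and the MBV libraries 78, 48 and 71. PBS was separated from both treatments, which overlapped. Summed over a group, 15 reads with PBS (exact 95% Poisson interval 8.40 to 24.7, covering counting error only) stood against 173 with fluvastatin (148 to 201) and 197 with MBV (170 to 227). In CPM the mean was 0.175 ± 0.0396, 2.33 ± 0.335 and 2.69 ± 0.444 (n = 3 each), 13.3-fold and 15.4-fold above PBS.

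Few reads fell on the odorant receptor genes around Olfr769. The neighbours on each side, Olfr768 and Olfr770, had no count in any library, and the 30 receptor genes within 500 kb held 130 counts in all over the 9 libraries, with 18 of them at 0. Over the whole genome the other 1191 genes named as odorant receptors summed to between 42.2 and 52.4 CPM with PBS, between 53.7 and 54.7 CPM with fluvastatin, and between 52.7 and 61.6 CPM with MBV. All 6 treated libraries thus lay above the PBS libraries in this sum too, by little in the lowest of them. Of those tested singly, 2 of 411 rose with fluvastatin and 6 of 461 with MBV, where 9.36% and 12.0% of all genes rose, and none fell. Few of the receptors had many reads. Of 1192, Olfr769 included, 28 averaged over 10 counts and 685 had no count in the 9 libraries. Their share called is therefore not comparable with that of all genes, and nothing is read from it.

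The last exon of Olfr769, 3688 bases long, holds a widely repeated element. Of its 3614 windows of 75 bases, 296 had an exact copy elsewhere in the genome, and the most frequent had 6365 copies. The 30 bases with the most exact copies (of windows holding each base at least 3 times) are printed to show what such a read would carry.
Olfr769 3′ untranslated, chr10:128945734-128945763, minus strand: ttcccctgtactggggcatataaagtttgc
They occur at 34842 other places. Where in the gene the counted reads lay was not tested. By contrast, Ccdc187, Ip6k2, Pde10a, Ttll11, Isyna1 and Pagr1a had no 75-base exon window with an exact copy elsewhere, of 1174 (Isyna1) to 7837 (Ccdc187) windows examined.

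Pagr1a (ENSMUSG00000030680, chr7:126614205-126616524, minus strand) held 3, 14 and 2 reads with PBS, 19, 19 and 3 with fluvastatin, and 111, 115 and 11 with MBV. MBV replicates 1 and 2 stood apart from the other 7 libraries, whereas MBV replicate 3 lay below PBS replicate 2 in CPM (0.471 against 0.478), so the groups overlapped in all 3 comparisons. Summed reads were 19 with PBS (exact 95% Poisson interval 11.4 to 29.7), 41 with fluvastatin (29.4 to 55.6) and 237 with MBV (208 to 269). These intervals cover counting error only, not the spread between libraries, which was 11.2-fold in CPM within the MBV group. The mean was 0.217 ± 0.226 CPM, 0.540 ± 0.359 CPM and 3.26 ± 2.49 CPM. The log2 change with MBV was 3.85, and 5.14 without PBS replicate 2. With fluvastatin it was 1.29, and 2.58 without the same library.

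Pagr1a shares its exons with other genes of the tables on the same strand. Of 1766 exon bases of Pagr1a in GENCODE M39, 1452 (82.2%) are also exon of Gm42742, and 347 (19.6%) are exon of Pagr1b as well, a non-coding RNA. An 83-base coding exon belongs whole to Pagr1a, Pagr1b and Gm42742, and it is printed because a read from it cannot be assigned to 1 of the 3 genes by its letters.
Shared exon of Pagr1a, Pagr1b and Gm42742, chr7:126615372-126615454, minus strand: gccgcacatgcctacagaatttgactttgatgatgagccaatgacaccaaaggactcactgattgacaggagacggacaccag
Gm42742 held 688, 678 and 544 reads with PBS, 596, 710 and 579 with fluvastatin, and 555, 438 and 615 with MBV. In raw reads Gm42742 was lowest in MBV replicate 2, where Pagr1a was highest, and this library also had the lowest total (21349516 counts). In CPM the mean of Gm42742 was 22.1 ± 1.26 with PBS, 25.2 ± 1.15 with fluvastatin and 22.2 ± 3.56 with MBV. Pagr1b held between 7 and 46 reads. The reads of the 3 genes together came to 700, 714 and 558 with PBS, 629, 736 and 628 with fluvastatin, and 703, 562 and 639 with MBV. Of this sum, Pagr1a took between 0.358% and 3.02% in the PBS and fluvastatin libraries, 15.8% and 20.5% in MBV replicates 1 and 2, and 1.72% in MBV replicate 3. In CPM the sum was 22.8 ± 1.58 with PBS, 26.7 ± 0.804 with fluvastatin and 26.2 ± 0.955 with MBV, 1.17-fold and 1.15-fold above PBS and 0.983-fold between MBV and fluvastatin. The treated libraries (25.9 to 27.5 CPM with fluvastatin and 25.7 to 27.3 CPM with MBV) all lay above the PBS libraries (21.2 to 24.4 CPM). This sum was chosen after the data were seen. Of 4508 exon bases of Gm42742, 1452 are shared with Pagr1a, so the sum can hold reads from outside Pagr1a. Prrt2 lies on the same strand at chr7:126616703-126620383, largely within the span of Gm42742 (126614223 to 126620269), and was not in the sum. Its level was 22.1 ± 1.06 CPM with PBS, 34.6 ± 3.57 CPM with fluvastatin and 37.0 ± 3.74 CPM with MBV. How reads were shared between these genes was not tested.

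**Figure D4:**
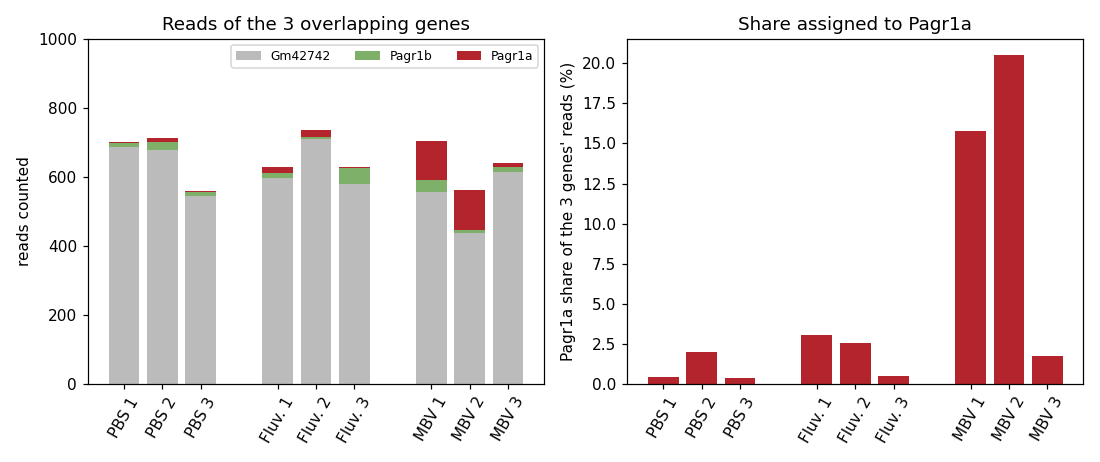
Left, reads counted (y axis) for Gm42742, Pagr1b and Pagr1a, stacked, in each of the 9 libraries (x axis), and right, the percentage of these reads counted for Pagr1a. The stacks, in reads not scaled for the library total, run from 558 to 736, and the share of Pagr1a is 15.8% and 20.5% in MBV replicates 1 and 2 and at most 3.02% in the other 7 libraries.

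Of the 10 other genes listed for the MLL3 and MLL4 complexes, Pagr1b among them, 2 rose and none fell with each treatment, where 9.36% of all genes rose with fluvastatin and 12.0% with MBV. Kmt2d, the methyltransferase MLL4, rose from 956 ± 60.3 to 1360 ± 103 CPM with fluvastatin (adjusted p = 0.00125) and to 1372 ± 52.7 CPM with MBV (adjusted p = 0.000704). Kmt2c, which is MLL3, rose by 0.23 with MBV (adjusted p = 0.00994), and its change with fluvastatin was 0.17 (adjusted p = 0.0616). Ncoa6, a coactivator of these complexes, rose by 0.17 with fluvastatin (adjusted p = 0.0151). The median of the 10 genes was 0.07 and 0.03. Both counts dropped to 1 without PBS replicate 1. Both became 3 as well, with fluvastatin without PBS replicate 2, and with MBV without MBV replicate 3.

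The genes whose groups did not overlap were also counted in each comparison. Compared to PBS, 6 of the 8 genes did not overlap with fluvastatin (4 higher and 2 lower), where 36.6% of all genes with a count did not (17.3% higher and 19.3% lower). With MBV 7 did not overlap (5 higher and 2 lower), where 41.3% of all genes did not (20.3% higher and 21.0% lower). The members were chosen on these libraries, so nothing is read from their counts. These comparisons share the PBS libraries and span both sets of library numbers. Between MBV and fluvastatin 3 of the 8 did not overlap, where 16.4% of all genes did not (8.53% higher and 7.88% lower). Ccdc187 and Ip6k2 were higher with MBV, and Pde10a was lower. Of the 117 other genes on the 7 pathway lists, none was called between MBV and fluvastatin by edgeR or DESeq2, with 13 at an unadjusted p under 0.05, and 0.0588% of all genes were called by edgeR (0.0267% higher and 0.0320% lower).

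**Figure D5:**
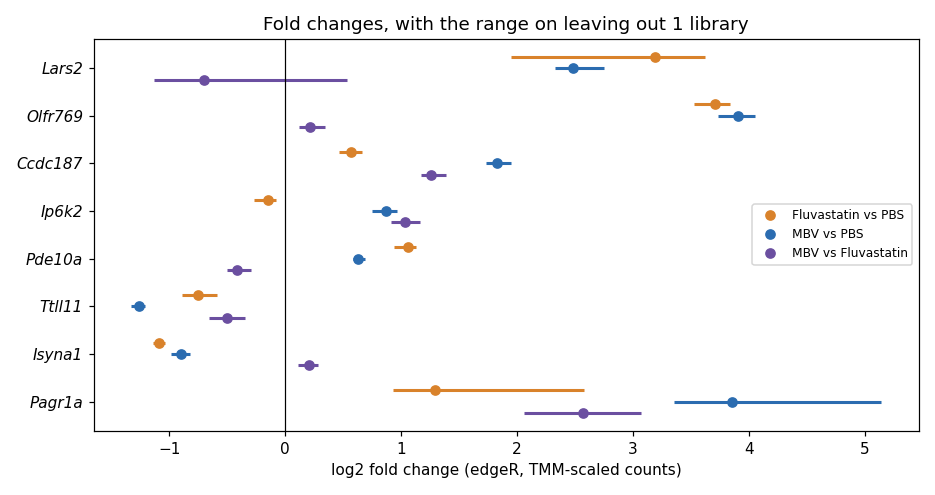
log2 fold change (x axis) of each gene (y axis) in the 3 comparisons, as points, with a line from the lowest to the highest value when any 1 library is left out. Lars2 crosses 0 between MBV and fluvastatin (-1.13 to 0.53), and Pagr1a spans 3.35 to 5.14 between MBV and PBS.

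The genes were also compared with all others by their pattern over the 9 libraries (Pearson's r of log2(CPM + 0.5), among 13159 genes with a mean of at least 50 counts, at most 3 of the most alike named). These r values are descriptions over 9 points that share the split between PBS and treated libraries. Most like Lars2 were Pank2 (r = 0.971), D430019H16Rik (0.962) and Zfp637 (0.958), and most like Olfr769 were Tmem26 (0.992), Mlec (0.992) and Vash1 (0.990). Tmem26 rose from 2.16 ± 0.247 CPM with PBS to 5.75 ± 0.527 CPM with fluvastatin and 6.14 ± 0.610 CPM with MBV. Pank2, an enzyme of coenzyme A synthesis, moved only from 54.9 ± 0.909 to 61.3 ± 3.76 and 62.4 ± 0.597 CPM.

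Ip6k2 was most like Usp2 (r = 0.978), Tbl1x (0.966) and Rbm20 (0.965). Usp2, a deubiquitinase under circadian control, was at 130 ± 4.43 CPM with PBS, 134 ± 11.6 CPM with fluvastatin and 229 ± 20.9 CPM with MBV, so its PBS and fluvastatin libraries were alike and its MBV libraries higher. Ccdc187 was most like Sufu (0.969), Oxsr1 (0.964) and Wdr92 (0.962). Pde10a was most like Nudc (0.979), Hdgfl2 (0.972) and Ilrun (0.968), which were highest with fluvastatin too, at 51.8 ± 2.57, 58.0 ± 3.70 and 159 ± 2.08 CPM.

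Ttll11 was most like Ulk2 (r = 0.992), Cirbp (0.992) and Rabgap1l (0.988). Cirbp, an RNA-binding protein induced by cold, fell from 180 ± 5.34 CPM with PBS to 131 ± 11.7 CPM with fluvastatin and 106 ± 4.97 CPM with MBV, in the order of Ttll11. Among the genes most like Isyna1 were Zfp317 (0.989) and Foxn2 (0.989). Foxn2, a forkhead transcription factor, was at 47.7 ± 1.71 CPM with PBS, 30.5 ± 0.382 CPM with fluvastatin and 32.9 ± 1.33 CPM with MBV. Pagr1a was most like Snx22 (0.960), Ldlrad4 (0.960) and Cdca3 (0.959), whose PBS and treated libraries overlapped. Among the 8 genes themselves, r ran from -0.93 for Olfr769 with Isyna1 to 0.89 for Lars2 with Olfr769, and it was 0.87 for Ccdc187 with Ip6k2.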

How the data were processed

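Retinal RNA of 12 samples (4 groups of 3) was sequenced from total RNA libraries as 75-base paired reads. The authors mapped reads to GRCm39 and counted them per gene in CLC Genomics Workbench, and deposited raw total counts beside columns of their own fold changes, p-values and FDR, which were not used. In the table of the combined treatment 6 count columns name no sample and were left out, so the planned comparison of MBV plus fluvastatin with PBS was not made. The 9 columns that the other 3 tables repeat were identical. Whether counting used strand is not given in the sources used here.

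From these deposited counts, edgeR 4.0.16 (TMM, quasi-likelihood test, R 4.3.3) compared 2 groups at a time over genes with a count, with Benjamini-Hochberg adjustment and calls at an adjusted p under 0.05. Alternatives were DESeq2 1.42.0, RLE scaling, a filter (10 counts in 2 libraries), 1 fit of all 9 libraries, removal of ribosomal and mitochondrial genes, a replicate block and leaving out each library. The count test was checked on simulated data. The members and lists were chosen with earlier results of these data known. Named besides the 8 genes were overlapping genes, the 3 most alike in pattern (1 gene is not reported here), and from each list the most abundant and called genes (Zfp185, Cntnap5b, Cd44, Gphn, Gm10800 and the nearest neighbours were singled out after their values were seen). Exon windows were searched in GRCm39 exactly, on both strands, and the last exon of Lars2 by BLAST 2.17.0 (identity of at least 85%), with GENCODE M39 annotation.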

Additional observations from a re-analysis of the deposited data

How the results depend on the processing

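Between MBV and fluvastatin the 11 calls over all genes became 5 with a low-count filter, 126 with DESeq2, 38 with all 9 libraries in 1 fit, and 0 with the replicate number as a block (1631 genes at an unadjusted p under 0.05), and leaving out 1 library gave 0 (without MBV replicate 1, 1347 genes at an unadjusted p under 0.05) to 197 (without MBV replicate 3). Compared to PBS, leaving out 1 library gave 1726 (without PBS replicate 1) to 4402 calls with fluvastatin and 2711 (without PBS replicate 1) to 5664 with MBV, and the block gave 3727 and 3876. The samples share only a number: deviations of same-numbered samples correlated between -0.478 and 0.221. With RLE scaling the calls with fluvastatin were 1828 higher and 1823 lower, against 1761 and 1926. Of the members' log2 fold changes, 7 of 144 moved beyond the replicate SD on leaving out 1 library, all of Lars2, Olfr769 and Pagr1a, and 1 changed sign, that of Lars2 between MBV and fluvastatin without fluvastatin replicate 3 (0.53). The sum of Pagr1a, Pagr1b and Gm42742, chosen after seeing the data, moved the change of Pagr1a from 1.29 to 0.23, from 3.85 to 0.20, and from 2.57 to -0.02 (fluvastatin and MBV compared to PBS, and MBV compared to fluvastatin). The other 144 of 147 moved by less. The block also took the 6 synthetase calls with MBV to 3 and the 5 tubulin calls to 3, and the single ribosomal call with fluvastatin became 2 with the block or DESeq2. The causes were not tested. Alternatives for MBV plus fluvastatin were not run.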
